A study of Mus musculus with 4 samples.

Results

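The collagen chains described here are the 44 genes of the soleus expression table whose symbol has the form of a collagen chain (Col, a type number, the letter a and a chain number), out of 23420 genes in all. They were grouped as 11 fibrillar chains, 6 basement membrane chains (type IV) and 27 chains of other types. The tested mice were muHuR-KO, the muscle-specific knockout of Elavl1, the gene of the RNA-binding protein HuR, in which Cre recombinase driven by the MyoD promoter is active in the muscle lineage (MyoDCre+;LoxP-/- in the labels). The control mice were littermates of the same C57BL/6 background and carry the same LoxP allele label without the transgene (MyoDCre-;LoxP-/-). The study describes the allele as floxed, and how the label relates to that genotype is not stated. All mice were 10 weeks old, and the RNA came from whole soleus, a slow postural muscle of the lower leg, from 2 animals with the knockout (muHuR-KO 1-9 and 3-9) and 2 without it (control 3-8 and 3-12). Each library is 1 mouse, and the number of mice limits the precision, as does the depth for the low chains. The mouse number of muHuR-KO 1-9 begins with 1 and those of the other 3 mice with 3, and what this leading number stands for is not stated in the labels. Because Cre acts in the muscle lineage while RNA of the whole muscle was sequenced, the counts do not show which cells carried the deletion.

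Collagens are proteins of the extracellular matrix in which 3 alpha chains wind into a triple helix. Fibrillar collagens assemble into the banded fibers that carry tension in tendon and in the connective tissue sheaths of muscle, type IV collagen forms the network of the basement membrane around each muscle fiber and blood vessel, and type VI collagen forms beaded filaments between them. In skeletal muscle most collagen RNA is made by fibroblasts of the connective tissue, with endothelial cells and muscle cells adding to type IV.

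The values are normalized counts, which are reads per gene divided by a size factor for each library, and the libraries held 30362871 and 33348893 reads in muHuR-KO (1-9 and 3-9), against 25767295 and 13301715 reads in control (3-8 and 3-12). Elavl1 itself had 1209.7 and 1205 normalized counts in muHuR-KO and 1349.5 and 1190.1 in control. The RNA count over the whole gene thus did not separate the genotypes. In the study an exon of Elavl1 is floxed, not the whole gene, and the loss of HuR protein in soleus was shown by western blot. The mice of that blot are not stated to be those sequenced. Reads were not counted by exon here, and why the Elavl1 count overlapped between groups was not tested. The slow fiber genes were abundant in every library: Myh7, the slow myosin heavy chain, had 447856 and 509562 normalized counts in muHuR-KO and 717916 and 493302 in control. Control 3-8 stood apart from the others. In the tenth of tested genes with the lowest GC content the median difference of this library from the mean of the other 3 was -1.05 on the log2 scale, and in the tenth with the highest GC content it was 0.36. The tested collagens had GC contents of 45.9 to 62.9%, with a median of 55.9%, against 49.8% over all tested genes. Results are therefore given against both controls, against each control alone, and with the GC trend removed.

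Of the 44 chains, 38 had a mean of at least 10 normalized counts over the 4 libraries and were tested with limma on log2(normalized count + 1) together with all 13287 genes that passed this filter. Differences below are on this scale, which understates changes of low genes. Against both controls 0 collagens passed an adjusted p under 0.05, and 0% of all tested genes did. edgeR and DESeq2 on the recovered reads also called 0 chains. At an unadjusted p under 0.05 with a log2 difference beyond 0.5, limma found 7 chains higher in muHuR-KO, 18.4% of the 38, where 0.632% of all tested genes were. These were Col2a1, Col8a1, Col11a1, Col16a1, Col24a1, Col25a1 and Col27a1. It found 0 chains lower, against 0.135% of all genes. An exact permutation test on 2 against 2 mice cannot go below a two-sided p of 0.333 for a single gene.

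Both muHuR-KO libraries lay above both controls for 21 of the 38 tested chains (55.3%), while 9.57% of all tested genes did so. Both lay below both controls for 0 chains, against 13% of all tested genes. By class the count above was 10 of 11 fibrillar chains, 1 of 5 basement membrane chains and 10 of 22 other chains. The other chains counted include Col17a1, which passed the filter only through muHuR-KO (mean 14.5, against 8.07 in control). With the GC trend removed it was 20 of 38 chains, against 10.1% of all genes, and it included 8 of 11 fibrillar chains. The median log2 difference against both controls was 0.62 over the fibrillar chains, 0.21 over the basement membrane chains and 0.38 over the others, and it was -0.01 over all tested genes. The fibrillar median was 0.72 against control 3-8 alone and 0.41 against control 3-12 alone. Without muHuR-KO 1-9 it was 0.23 against both controls, and without muHuR-KO 3-9 it was 0.87. Class medians are descriptions, with no test. With a correction for gene length in place of that for GC, 13 chains (34.2%) lay above both controls, against 8.97% of all genes, and 1 lay below, against 16% of all genes.

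**Figure D1:**
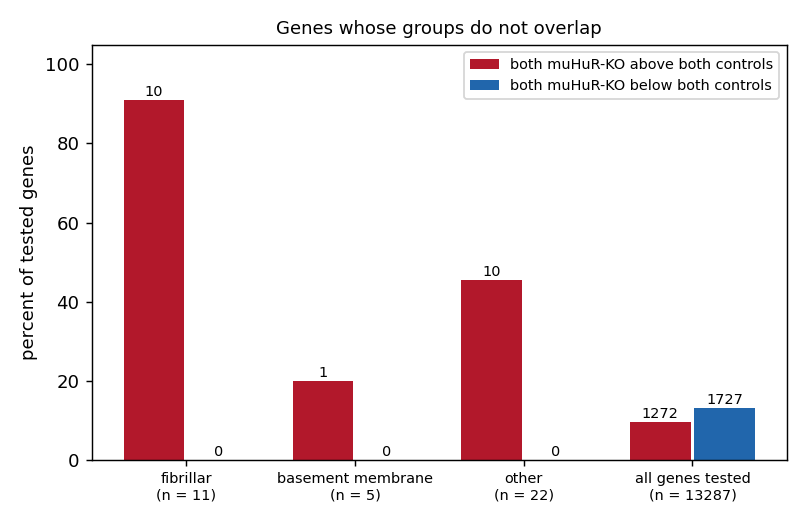
Percent of tested genes (vertical axis) with both muHuR-KO libraries above both controls (red) or below both (blue), for each collagen class and for all genes tested, with the number of genes over each bar. The fibrillar bar stands for 10 of 11 chains and the basement membrane bar for 1 of 5, and no collagen class has a chain below both controls.

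The summed normalized count of the 11 fibrillar chains was 62716 and 40460.1 in muHuR-KO 1-9 and 3-9, against 35232 and 38634 in control 3-8 and 3-12. The 6 basement membrane chains summed to 23023 and 24419.8 in muHuR-KO, against 23827 and 22351 in control. The 27 other chains summed to 21835 and 16806 in muHuR-KO, against 15734 and 16763 in control. Both muHuR-KO mice were thus above both controls in the fibrillar sum and overlapped with them in the basement membrane sum, with muHuR-KO 1-9 far above the rest and muHuR-KO 3-9 close to control 3-12. As a share of all reads, collagen RNA was 0.412 ± 0.0936% in muHuR-KO and 0.308 ± 0.0145% in control (SD, n = 2 each). Scaled in this way, the basement membrane chains had 0.102% and 0.103% of reads in muHuR-KO 1-9 and 3-9, against 0.0947% and 0.0913% in control 3-8 and 3-12, so their groups did not overlap as they did in normalized counts. For all chains together the share in single libraries ran from 0.346% in muHuR-KO 3-9 (Wilson 95% interval 0.344 to 0.348%, counting error only) to 0.478% in muHuR-KO 1-9 (0.476 to 0.480%), against 0.297% in control 3-8 (0.295 to 0.299%) and 0.318% in control 3-12 (0.315 to 0.321%). In whole muscle, a change in the number of cells of a type and a change in RNA per cell cannot be told apart.

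**Figure D2:**
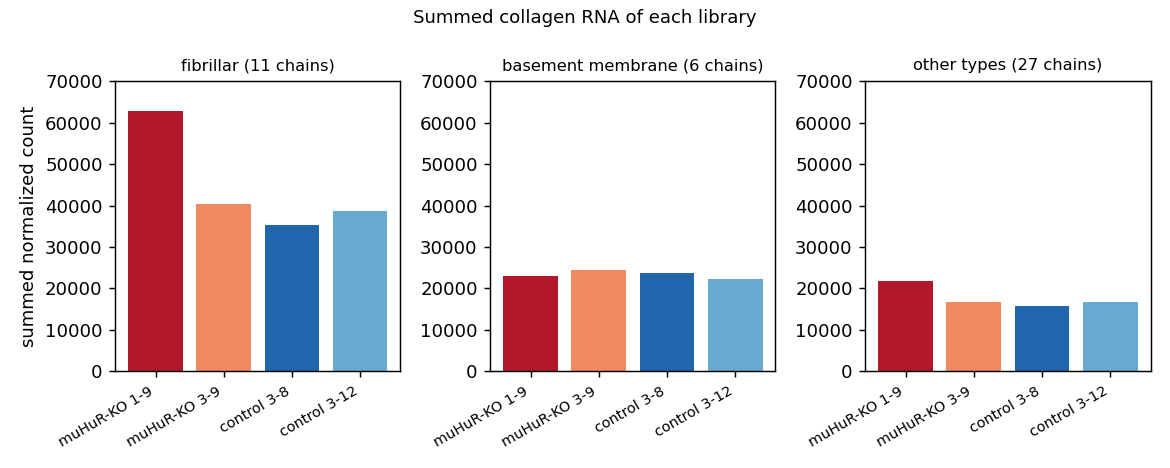
Summed normalized count (vertical axis, from 0, the same in each panel) of the fibrillar, basement membrane and other chains, 1 bar per library. muHuR-KO 1-9 reaches 62716 in the fibrillar panel, while the 4 bars of the basement membrane panel lie between 22351 and 24419.8.

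The major fibril chains were Col1a1 and Col1a2, which form type I collagen, the main load-bearing fiber, and Col3a1, which forms the thinner type III fibers of compliant tissue. Col1a1 (chr11:94936224-94953042, plus strand, GRCm38) had 19534 and 9455 normalized counts in muHuR-KO 1-9 and 3-9, against 8638 and 9609 in control 3-8 and 3-12. Col1a2 had 19905 and 11512 in muHuR-KO, against 9215 and 10457 in control. Col3a1 had 15406 and 12668 in muHuR-KO, against 11946 and 12538 in control. For Col1a1 the groups overlapped, and for Col1a2 and Col3a1 both muHuR-KO libraries were above both controls, Col3a1 by a small margin that was lost with the GC trend removed. muHuR-KO 1-9 carried most of the type I difference, with 2.07 times the Col1a1 and 1.73 times the Col1a2 of muHuR-KO 3-9. The log2 difference against both controls was 0.58 ± 0.37 for Col1a1, 0.62 ± 0.33 for Col1a2 and 0.19 ± 0.27 for Col3a1 (± is the standard error here and in all log2 differences), and none passed the test (limma, adjusted p = 1 for each).

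These 3 chains made up 51.0% and 41.2% of all collagen normalized counts in muHuR-KO 1-9 and 3-9, against 39.8% and 41.9% in control 3-8 and 3-12, so only muHuR-KO 1-9 departed from the others. Per kilobase of exon, taken over all annotated exons of a gene, the ratio of Col1a1 to Col1a2 was 1.86 and 1.56 in muHuR-KO, against 1.77 and 1.74 in control. Taken over the longest transcript it was 0.885 and 0.741 in muHuR-KO, against 0.845 and 0.829 in control, so which chain is the higher depends on the length used. Either way the groups overlapped. The ratio of Col3a1 to Col1a1 over all exons was 0.527 and 0.896 in muHuR-KO, against 0.925 and 0.872 in control, and muHuR-KO 1-9 was the lowest.

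The DNA before the start sites is shown for Col1a2 and Col3a1, 2 abundant fibril chains whose increase in muHuR-KO 1-9 differed in size, and for Col11a1, the chain with the largest difference described next. Each is the 250 bases before the RefSeq start on GRCm38.p6, with capitals marking 3 short promoter motifs on either strand. The motif searched as the GC box, which the factor Sp1 binds, was GGGCGG. The pentamer known as the CCAAT box was searched by those letters. The TATA box of core promoters was searched as TATAAA. Col1a2 lies at chr6:4505368-4505617, Col3a1 at chr1:45311288-45311537 and Col11a1 at chr3:114030290-114030539, all on the plus strand.
Col1a2: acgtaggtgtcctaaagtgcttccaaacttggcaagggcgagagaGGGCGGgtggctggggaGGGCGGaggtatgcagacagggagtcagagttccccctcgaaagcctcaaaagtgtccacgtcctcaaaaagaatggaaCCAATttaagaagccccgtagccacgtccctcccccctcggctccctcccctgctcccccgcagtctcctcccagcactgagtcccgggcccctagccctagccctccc
Col3a1: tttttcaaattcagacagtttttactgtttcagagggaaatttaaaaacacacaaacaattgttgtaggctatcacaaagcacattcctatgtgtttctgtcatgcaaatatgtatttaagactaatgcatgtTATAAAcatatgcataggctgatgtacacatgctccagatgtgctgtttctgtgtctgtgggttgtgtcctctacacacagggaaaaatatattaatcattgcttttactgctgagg
Col11a1: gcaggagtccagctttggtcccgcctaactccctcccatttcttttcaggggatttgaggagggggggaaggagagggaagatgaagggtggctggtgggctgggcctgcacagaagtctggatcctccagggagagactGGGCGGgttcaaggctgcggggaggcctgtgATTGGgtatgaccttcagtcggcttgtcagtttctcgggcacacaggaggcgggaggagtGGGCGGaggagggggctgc
Col1a2 and Col11a1 each have 2 GC boxes and 1 CCAAT box in these 250 bases. A further CCAAT match of Col1a2 begins at the RefSeq start itself and is not shown. Col3a1 has 1 match to the TATA letters, at -117 from the start, and neither of the others. RefSeq windows of 300 bases, which run from 250 bases before the start to 50 after it, matched 35 of the 44 collagen genes with 38 windows. A GC box stood in 60.5% of these 38 windows (6 of 8 fibrillar, 4 of 5 basement membrane, 13 of 25 others), against 35.7% of all 32851 windows. A CCAAT box stood in 34.2% against 37.4% of all windows, and a TATA box in 13.2% against 13.6%. Motifs were counted on both strands whether or not they overlapped, and a match is a description of the sequence.

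Apart from type I and III, 8 fibrillar chains of lower level were measured, and both muHuR-KO libraries were above both controls for 8 of 8, beside 9.57% of all tested genes. With the GC trend removed this held for 7, the exception being Col5a1, beside 10.1% of all genes. Unlike the type I chains, their median was close in the 2 muHuR-KO mice, at 0.74 in muHuR-KO 1-9 and 0.80 in muHuR-KO 3-9 above the control mean on the log2 scale. The size depended on the control, at 0.94 against control 3-8, the lowest library for 7 of the 8, and 0.41 against control 3-12. For all 11 fibrillar chains it was 0.87 in muHuR-KO 1-9 and 0.23 in muHuR-KO 3-9.

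Col11a1 and Col11a2 encode type XI chains, which nucleate fibrils in cartilage and are also expressed in developing tendon. Col11a1 (chr3:114030540-114220718) had 783 and 535 normalized counts in muHuR-KO 1-9 and 3-9, against 159 and 425 in control 3-8 and 3-12. Col11a2 had 308 and 349 in muHuR-KO, against 164 and 246 in control. The groups did not overlap for either gene, and control 3-8 was the lowest library for both. The log2 difference for Col11a1 was 1.31 ± 0.47 against both controls (limma, adjusted p = 1), 2.02 ± 0.28 against control 3-8 (limma, adjusted p = 0.00852) and 0.61 ± 0.28 against control 3-12 (limma, adjusted p = 1). That for Col11a2 was 0.70 ± 0.31 against both controls, 0.99 ± 0.26 against control 3-8 (limma, adjusted p = 0.0433) and 0.41 ± 0.26 against control 3-12.

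Col2a1, the chain of type II collagen of cartilage, Col24a1 and Col27a1, 2 fibrillar chains known from bone and cartilage, were low but countable. Col2a1 had 89.7 and 82.2 normalized counts in muHuR-KO, against 28.3 and 55.2 in control (29 and 30 reads). Col24a1 had 326 and 337 in muHuR-KO, against 121 and 250.2 in control. Col27a1 had 117 and 112 in muHuR-KO, against 61.5 and 66.2 in control. In each the muHuR-KO mice were close to each other, 1.09-fold apart for Col2a1, and above both controls. Control 3-8 was clearly the lowest for Col2a1 and Col24a1, whereas the controls were close for Col27a1. The log2 differences against control 3-8 were 1.57 ± 0.36 for Col2a1 and 1.45 ± 0.26 for Col24a1 (limma, adjusted p = 0.0243 and 0.0097). Against control 3-12 they were 0.63 ± 0.36 and 0.41 ± 0.26. Col27a1 differed by 0.89 ± 0.33 against control 3-8 and by 0.78 ± 0.33 against control 3-12 (limma, adjusted p = 0.145 and 1), so either control gave a similar size.

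Other cartilage and bone genes were at or near 0 apart from Sox9. Matn1, a cartilage matrix protein, was at 0 in all 4 libraries, and Bglap and Ibsp of bone were at 0 in every library but muHuR-KO 1-9, where they had 2.22 and 4.45 normalized counts. Acan, the cartilage proteoglycan, had 3.71 and 5.67 in muHuR-KO, against 0 and 9.20 in control. Sox9, the regulator of cartilage genes, was the only 1 of the 6 listed cartilage and bone genes above the filter, with 306 and 257 in muHuR-KO, against 457 and 344 in control, so both muHuR-KO libraries lay below both controls (log2 difference -0.50 ± 0.29, limma, adjusted p = 1).

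Type V chains join type I fibrils and set their diameter. Col5a1 had 2238 and 2011 normalized counts in muHuR-KO, against 1836 and 1874 in control. Col5a2 had 2231 and 1625 in muHuR-KO, against 1414 and 1598 in control. Col5a3 had 1777 and 1774 in muHuR-KO, against 1649 and 1514 in control. The groups did not overlap for any of the 3, but the differences were small, at 0.19 ± 0.25, 0.34 ± 0.28 and 0.17 ± 0.25 on the log2 scale against both controls, and none passed the test.

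**Figure D3:**
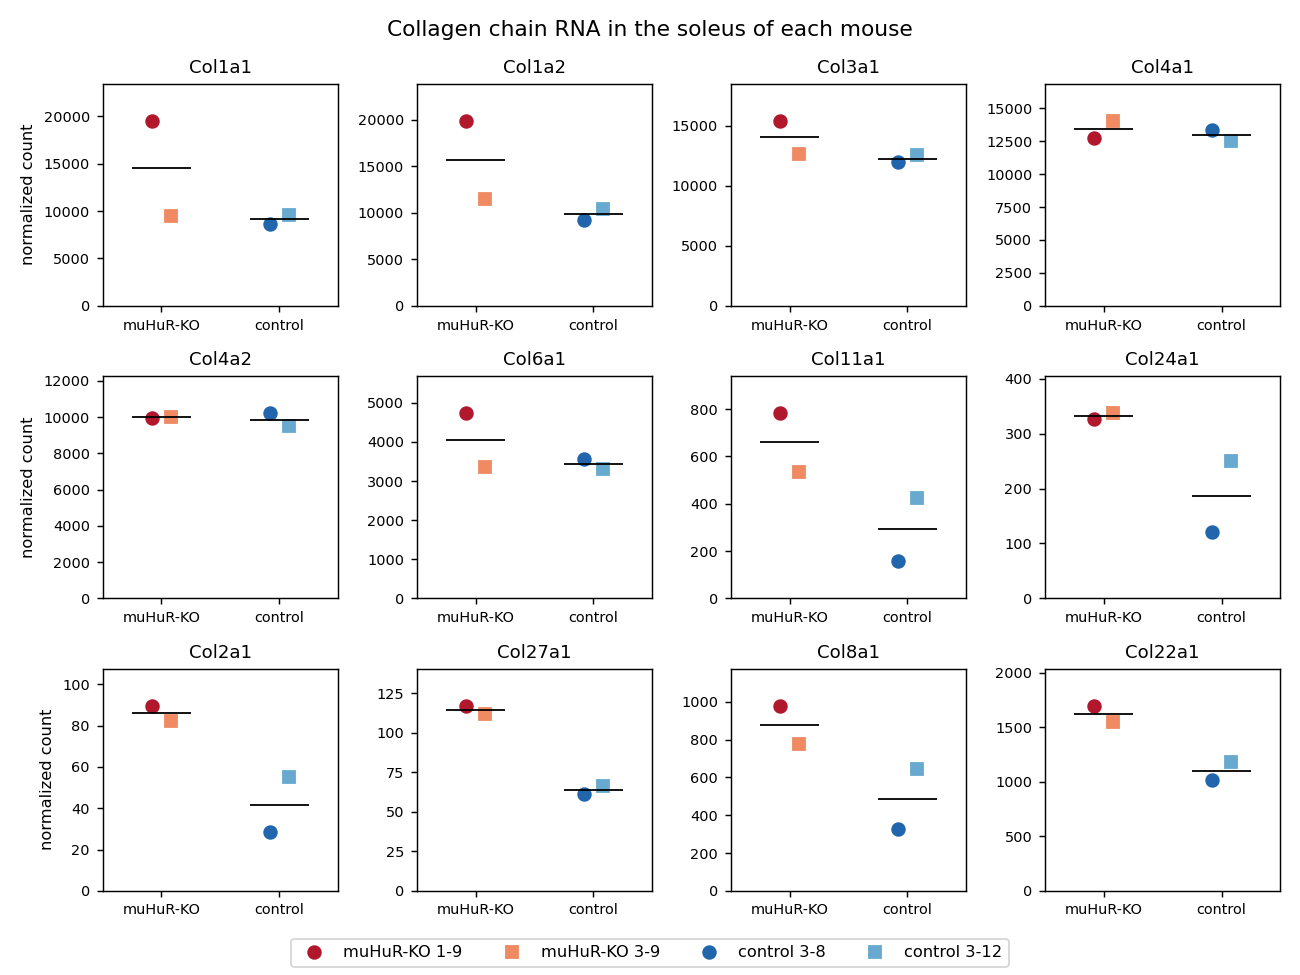
Normalized count (vertical axis, from 0) of 12 chains in each library, with muHuR-KO on the left, control on the right and the group mean as a line. Type I chains are highest in muHuR-KO 1-9, Col4a1 and Col4a2 are level in all 4 libraries, and both muHuR-KO points lie above both controls for Col11a1, Col24a1, Col2a1, Col27a1, Col8a1 and Col22a1.

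Type IV collagen gave a flat picture in its major chains. Col4a1 and Col4a2 assemble into the standard network of basement membranes. Col4a1 (chr8:11198423-11312826, minus strand) had 12731 and 14057 normalized counts in muHuR-KO, against 13358 and 12519 in control. Col4a2 (chr8:11312805-11449287, plus strand) had 9954 and 9998 in muHuR-KO, against 10212 and 9504 in control. The highest library exceeded the lowest by 1.12-fold for Col4a1 and 1.07-fold for Col4a2. The log2 differences against both controls were 0.05 ± 0.26 and 0.02 ± 0.26. Together they made up 21.1% and 29.4% of collagen normalized counts in muHuR-KO 1-9 and 3-9, against 31.5% and 28.3% in control, and the ratio of type I and III chains to these was 2.42 and 1.40 in muHuR-KO, against 1.26 and 1.48 in control.

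The ratio of Col4a1 to Col4a2 per kilobase of exon was 1.13 and 1.25 in muHuR-KO, against 1.16 and 1.17 in control, so the chains kept a near-fixed proportion in all 4 libraries and the groups overlapped. These genes are transcribed in opposite directions, with RefSeq starts 21 bases apart. Their starts overlap, so the bases between the starts lie within both transcripts. The GC box between the starts is at 7 from the Col4a2 start and at 9 from the Col4a1 start. It is the only GC box of the Col4a1 window and was counted in both windows. The 30 bases over both starts, at chr8:11312801-11312830 (GRCm38.p6, plus strand), are shown with this box in capitals.
Col4a1-Col4a2: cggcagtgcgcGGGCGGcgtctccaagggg

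Col4a3, Col4a4 and Col4a5 form the specialized networks known from kidney, and Col4a5 is also found at the neuromuscular synapse. Col4a3 had 114 and 92.1 normalized counts in muHuR-KO, against 76.2 and 84.6 in control. Col4a4 had 63.7 and 52.5 in muHuR-KO, against 35.2 and 66.2 in control. Col4a5 had 153 and 213 in muHuR-KO, against 142 and 173 in control. The groups overlapped except for Col4a3, whose log2 difference was 0.35 ± 0.33 against both controls, and none of the 3 passed the test against either control. Col4a6 had under 10 normalized counts in every library. The median log2 difference over 10 genes for other parts of the basement membrane was 0.07, with 1 of 10 above both controls and 1 below, shares close to the 9.57% and 13% of all genes. Lama2, the laminin chain of muscle fibers, had 2695 and 2739 in muHuR-KO, against 1817 and 2402 in control (log2 difference 0.38 ± 0.27, limma, adjusted p = 1).

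**Figure D4:**
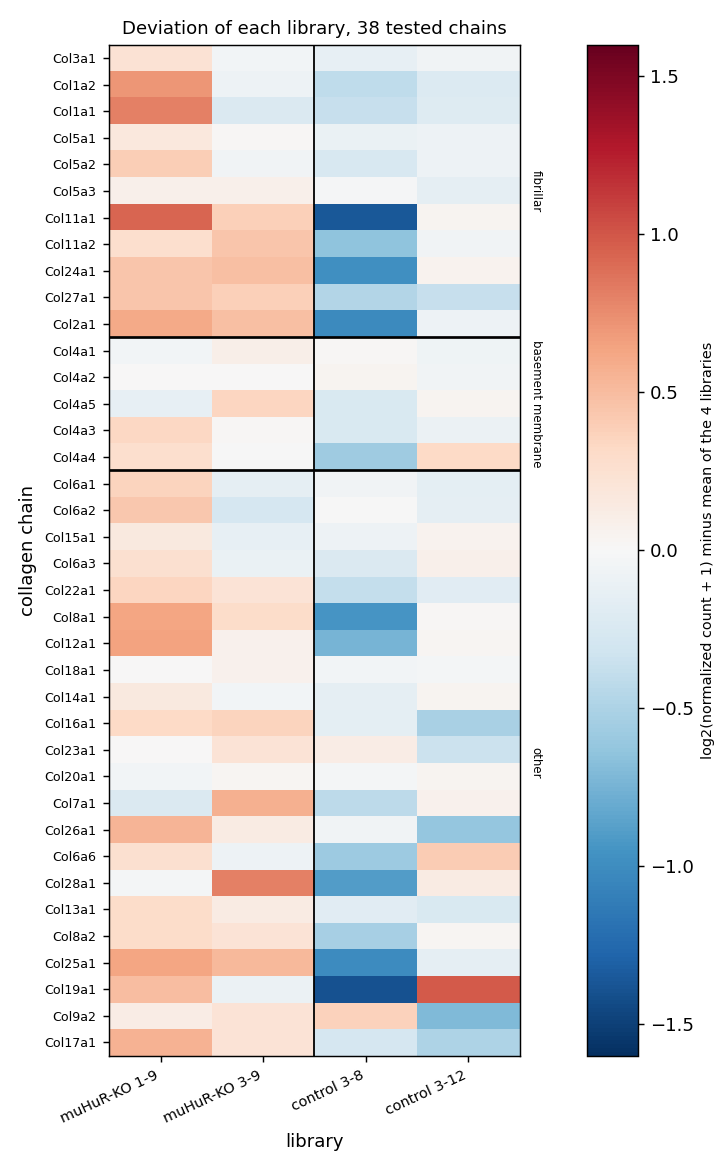
Deviation of each library from the mean of the 4 libraries on the log2(normalized count + 1) scale (color, red above and blue below) for the 38 tested chains (rows, by class and then by level), with muHuR-KO libraries in the left columns. The strongest blue of the fibrillar block falls in control 3-8 for Col11a1, Col2a1 and Col24a1, and Col4a1 and Col4a2 are near white throughout.

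Type VI chains build the beaded filaments that tie muscle fibers to the surrounding matrix. The 3 abundant ones, Col6a1, Col6a2 and Col6a3, followed muHuR-KO 1-9 only. Col6a1 had 4735 and 3358 normalized counts in muHuR-KO 1-9 and 3-9, against 3563 and 3307 in control 3-8 and 3-12. Col6a2 had 4747 and 2932 in muHuR-KO, against 3507 and 3186 in control. Col6a3 had 2757 and 2139.9 in muHuR-KO, against 1969 and 2441 in control. In all 3 muHuR-KO 1-9 was the highest library while muHuR-KO 3-9 lay within or below the range of the controls. Col6a6, a low alternative chain, had 110.4 and 87.9 in muHuR-KO, against 61.5 and 123 in control. The log2 differences of the 4 chains against both controls ran between 0.15 and 0.22, and their groups overlapped in 4 of 4. The ratio of Col6a1 to Col6a2 per kilobase of exon was 1.9 and 2.18 in muHuR-KO, against 1.93 and 1.97 in control.

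Col8a1 and Col8a2 are the short chains of type VIII collagen, a hexagonal network of vessel walls and remodeling tissue. Col8a1 had 979 and 777 normalized counts in muHuR-KO, against 328 and 642 in control. Col8a2 had 83.8 and 79.4 in muHuR-KO, against 46.9 and 69.9 in control. The groups did not overlap for either, and control 3-8 was the lowest. Col8a1 differed by 0.92 ± 0.37 against both controls, by 1.41 ± 0.24 against control 3-8 (limma, adjusted p = 0.00917) and by 0.44 ± 0.24 against control 3-12 (limma, adjusted p = 1). Col8a2 differed by 0.79 ± 0.35 against control 3-8 (limma, adjusted p = 0.222).

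Among the fibril-associated chains, which decorate the surface of fibrils, Col12a1 of tendon and dense connective tissue had 1006 and 674 normalized counts in muHuR-KO, against 384 and 657 in control. Col22a1, which in zebrafish is known to anchor muscle to tendon at the myotendinous junction, had 1697 and 1550.2 in muHuR-KO, against 1019 and 1179 in control. Col16a1 had 303 and 312 in muHuR-KO, against 217 and 169 in control. Both muHuR-KO mice were above both controls in all 3, for Col12a1 by a narrow margin over control 3-12, and Col22a1 and Col16a1 were closer within groups than between them. Against both controls the log2 differences were 0.71 ± 0.36, 0.56 ± 0.26 and 0.68 ± 0.29. Col12a1 passed the test against control 3-8 (1.10 ± 0.28, limma, adjusted p = 0.0358). Col16a1 and Col22a1 passed it against neither control, and they differed against control 3-12 by 0.86 ± 0.26 and 0.46 ± 0.21 (limma, adjusted p = 0.831 and 1). Col19a1 had 20.8 and 13.5 in muHuR-KO, against 4.88 and 29.4 in control (5 and 16 reads). That was the widest spread of controls among the tested chains, on few reads.

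Of the remaining types, Col15a1 and Col18a1 carry the endostatin domain and sit at basement membranes. Col15a1 had 3472 and 2836 normalized counts in muHuR-KO, against 2956 and 3236 in control, and Col18a1 had 534 and 562 in muHuR-KO, against 516 and 524 in control. Their log2 differences against both controls were 0.02 ± 0.26 and 0.08 ± 0.26, the groups overlapping for Col15a1 alone. Col25a1, a transmembrane collagen that mouse muscle needs for motor innervation, had 41.5 and 38.3 in muHuR-KO, against 12.7 and 23.9 in control (13 reads each), and differed by 1.15 ± 0.48 against both controls and 1.58 ± 0.44 against control 3-8 (limma, adjusted p = 0.0553). Col26a1 had 149.7 and 113 in muHuR-KO, against 98.6 and 66.2 in control, and Col28a1 had 75.6 and 135 in muHuR-KO, against 41.0 and 84.6 in control. Col26a1 did not overlap between groups and Col28a1 did, and neither passed the test against either control. The other 7 tested chains (Col7a1, Col9a2, Col13a1, Col14a1, Col17a1, Col20a1 and Col23a1) ranged between 7.36 and 437 normalized counts. Of these, Col13a1 and Col17a1 had both muHuR-KO libraries above both controls. Col17a1 passed the filter only through its muHuR-KO values (mean 14.5, against 8.07 in control). It held 9 and 4 reads in control 3-8 and 3-12, so its place above both controls carries little weight. The 6 chains under the filter (Col4a6, Col6a4, Col6a5, Col9a1, Col9a3 and Col10a1) had at most 10 reads in any library.

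Against control 3-8 alone, limma called 6 of 38 collagens (15.8%) higher at an adjusted p under 0.05, where 9.69% of all tested genes were called higher, and 0 lower (0.128% of all genes). The 6 were Col2a1, Col8a1, Col11a1, Col11a2, Col12a1 and Col24a1. At an unadjusted p under 0.05 with a log2 difference beyond 0.5, 13 chains (34.2%) were higher, against 17.7% of all genes, and 0 were lower, against 3.82% of all genes. Against control 3-12 alone 0 chains passed the adjusted threshold in either direction (0% of all genes higher and 0% lower), and edgeR and DESeq2 also called 0 chains. At the unadjusted threshold 3 chains (7.89%), Col16a1, Col26a1 and Col27a1, were higher, against 2.47% of all genes, and 0 were lower, against 2.19% of all genes. Both comparisons share the muHuR-KO libraries, and a lone control is assumed to vary like the muHuR-KO pair. For the 6 chains called against control 3-8 this did not hold, since the controls lay further apart than the muHuR-KO mice. On the log2 scale control 3-8 minus control 3-12 was -1.41 for Col11a1, where muHuR-KO 1-9 minus 3-9 was 0.55. For Col12a1, the closest case, these were -0.77 and 0.58. Standard errors and p-values against a single control leave out this difference between controls. With the GC trend removed the adjusted count against control 3-8 was 11 of 38 (28.9%), with Col1a1, Col1a2, Col22a1, Col27a1 and Col28a1 added, while the share over all genes was 3.81%. The count was 0 with the length correction, without the filter or without the mean-variance trend, and over all genes 1 was called higher with the length correction and 0 in the other settings. In each of the 6, control 3-8 was the lowest library and control 3-12 lay between it and the muHuR-KO mice.

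**Figure D5:**
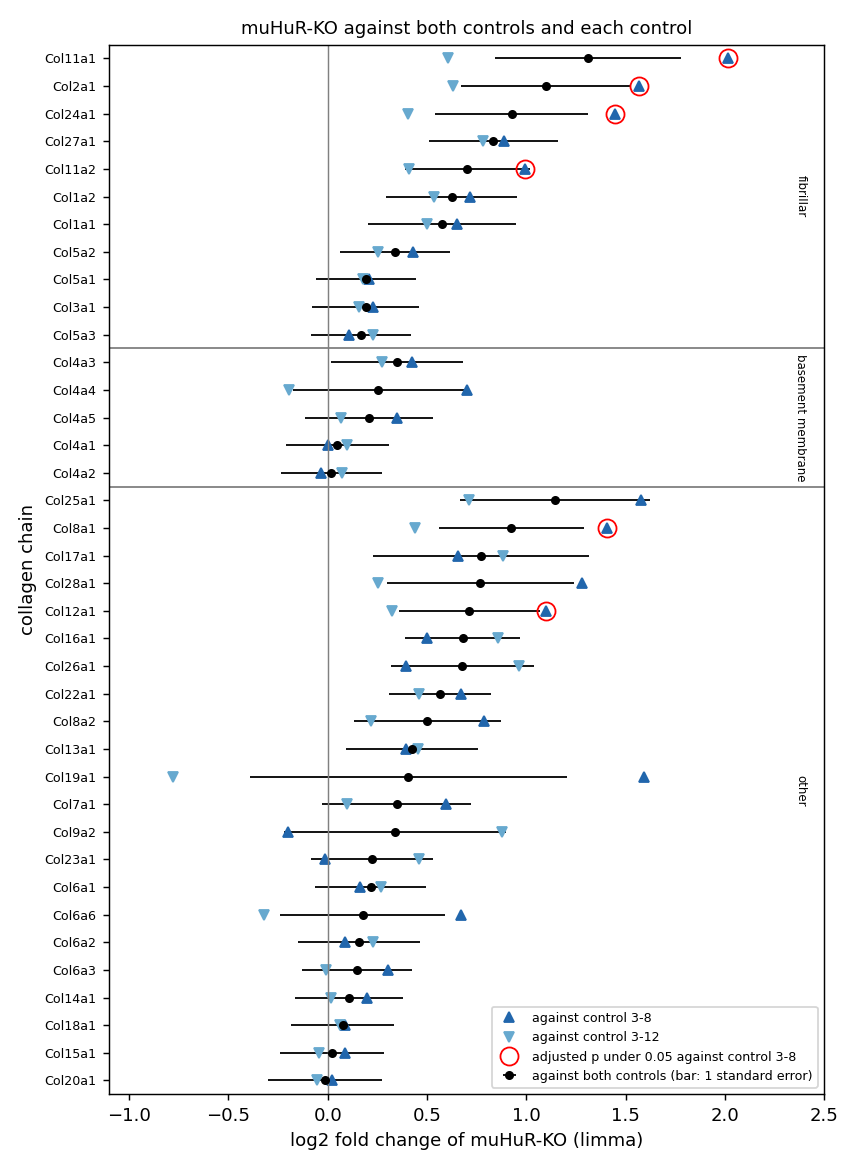
Log2 fold change of muHuR-KO (horizontal axis) for each tested chain, by class, against both controls (black, bar 1 standard error), control 3-8 alone (dark triangle) and control 3-12 alone (light triangle), with red circles at an adjusted p under 0.05 against control 3-8. The 6 circled chains have their light triangles between 0.33 and 0.63, and both triangles of Col4a1 and Col4a2 lie near 0.

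Per kilobase, the order of the mean levels of the abundant chains depended on the length used and, in muHuR-KO, on the mouse. Over all annotated exons the order of the muHuR-KO means was Col1a1 (2209 normalized counts per kilobase, against 1390.2 in control), Col4a1 (1794, against 1734 in control), Col4a2 (1507, against 1489 in control), Col3a1 (1430.1, against 1247 in control) and Col1a2 (1264, against 792 in control). Over the longest transcript it was Col1a2 (2937, against 1839 in control), Col3a1 (2523, against 2200.1 in control), Col1a1 (2444, against 1539 in control), Col4a1 (2025, against 1956 in control) and Col4a2 (1547, against 1528 in control). In the control means Col4a1 and Col4a2 stood before Col1a1 over all exons, while over the longest transcript Col3a1 came first and Col4a2 after Col1a1. Col1a1 led over all exons in muHuR-KO 1-9 alone, at 2976 per kilobase, while in muHuR-KO 3-9 it had 1441 and stood behind Col4a1 (1883) and Col4a2 (1511). Control 3-8 had the same order of these 3 chains, while in control 3-12 Col1a1 (1464) stood between Col4a1 (1677) and Col4a2 (1436). The order of these 5 chains is therefore not set by these data. Among the fibrillar chains the lowest over all exons were Col2a1 and Col27a1. Col2a1 had 9.30 in muHuR-KO and 4.52 in control, and Col27a1 had 8.80 in muHuR-KO and 4.90 in control.

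The genes that modify, secrete, crosslink and bind collagen were counted from lists named for their roles, beside 9.57% of all tested genes above both controls and 13% below. Of 17 that fold and hydroxylate the chains, 4 had both muHuR-KO libraries above both controls and 1 below, and the median log2 difference was 0.03. Plod2, the hydroxylase that prepares telopeptide lysines for crosslinking, had 274 and 235 normalized counts in muHuR-KO, against 145 and 169 in control (0.70 ± 0.29, limma, adjusted p = 1 against both controls). P4hb, a subunit of the prolyl hydroxylase, had 4530.4 and 4899 in muHuR-KO, against 6388 and 4608 in control. Of the 5 crosslinking enzymes 3 were above. Lox, which starts crosslinks between fibrillar chains, had 282 and 254 in muHuR-KO, against 80.1 and 201 in control, and differed by 1.07 ± 0.44 against both controls and 1.73 ± 0.28 against control 3-8 (limma, adjusted p = 0.00852). Loxl3 had 263 and 165 in muHuR-KO, against 152 and 125 in control, and Loxl4 had 46.0 and 46.8 in muHuR-KO, against 32.2 and 25.8 in control.

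Of 10 tested secretion and propeptide processing genes, 2 lay above and 0 below, against the same 9.57% and 13% of all genes. Adamts3, a procollagen N-proteinase, had 162 and 80.8 normalized counts in muHuR-KO, against 40.0 and 71.7 in control, and Mia3, which loads procollagen into transport carriers, had 2978 and 3203 in muHuR-KO, against 1475 and 3653 in control. Of 11 fibril-binding proteoglycans and glycoproteins 2 lay above. Postn, a matricellular protein that assists crosslinking, had 3788 and 1959 in muHuR-KO, against 658 and 1755 in control (1.34 ± 0.50 against both controls, limma, adjusted p = 1). Ogn had 1608 and 1213 in muHuR-KO, against 434 and 1449 in control, and Aspn 1835 and 1901 in muHuR-KO, against 860.3 and 1873 in control. Postn did not overlap between groups, while Mia3, Ogn and Aspn were low in control 3-8 alone and passed the test against it only (limma, adjusted p = 0.0129, 0.00852 and 0.0108). With the GC trend removed the calls of Ogn (log2 difference 0.63, limma, adjusted p = 0.108) and Aspn (0.01, limma, adjusted p = 0.992) against control 3-8 were lost, and those of Mia3 and Postn held (limma, adjusted p = 0.0309 and 0.00299).

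Of 9 tested collagen receptors 2 lay above both controls, where 9.57% of all genes did, and 6 did with the GC trend removed, where 10.1% of all genes did. Among the 6 are Itga2 and Lair1, which rest on few reads. Itga2 passed the filter only through muHuR-KO (mean 13.1, against 8.45 in control), with 6 reads in each control. Lair1 had 8 and 7 reads in control 3-8 and 3-12. Itga1, the alpha chain of a collagen-binding integrin, had 887 and 739 normalized counts in muHuR-KO, against 304 and 769 in control, and Ddr2, a receptor kinase for fibrillar collagen, had 1284 and 882 in muHuR-KO, against 391 and 1128 in control. Both were low in control 3-8 alone and passed the test against it (limma, adjusted p = 0.0089 and 0.0104, and 0.0277 and 0.00157 with the GC trend removed). Of 11 regulators of collagen synthesis 0 lay above and 2 below, against 9.57% and 13% of all genes. Smad3, which carries the TGF-beta signal, had 1968 and 2069.7 in muHuR-KO, against 2402 and 2579 in control, and the type I receptor Tgfbr1 had 682 and 665 in muHuR-KO, against 324 and 717 in control (limma, adjusted p = 0.019 against control 3-8). That call was lost with the GC trend removed, where the log2 difference against control 3-8 was 0.29 in place of 1.05 (limma, adjusted p = 0.6).

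Markers of other cells were summed beside the collagens. The 9 fibroblast markers summed to 26588 and 19667 normalized counts in muHuR-KO, against 24859 and 19969 in control, with 0 of 9 above both controls (9.57% of all genes were) and a median log2 difference of 0.06. In 8 of 9 (88.9%) muHuR-KO 1-9 was the highest library, where it was for 21.2% of all tested genes. This was not particular to fibroblast markers, at 87.5% of the macrophage and 83.3% of the endothelial markers. It was 0% of the Schwann cell and adipocyte markers. The 7 tendon markers, none at 0, summed to 11608 and 6936 in muHuR-KO, against 6183 and 6074 in control, and most of that sum was Thbs4, a matrix protein of the tendon junction, with 7877 and 4694 in muHuR-KO, against 4195 and 3672 in control. Without Thbs4 the groups overlapped, at 3731 and 2241 in muHuR-KO, against 1988 and 2402 in control. Tnmd, a membrane protein of tendon cells, had 783 and 529 in muHuR-KO, against 312 and 464 in control, and Comp, a fibril-binding matrix protein, had 263 and 286 in muHuR-KO, against 126 and 256 in control. These 3 of 7 lay above both controls, beside 9.57% of all genes, and 2 of 7 did with the GC trend removed, beside 10.1%. Scx, the transcription factor of tendon cells, had 473 and 371 in muHuR-KO, against 612 and 237 in control, and Chad had 676 and 437 in muHuR-KO, against 413 and 706 in control. They overlapped between groups, as did Mkx and Kera (Kera is also in the list of fibril-binding proteins). The median log2 difference of the 7 was 0.63 against both controls and 0.42 against control 3-12, and against the control mean it was 0.91 in muHuR-KO 1-9 and 0.26 in muHuR-KO 3-9. The amount of tendon left on each muscle is not given in the sources used here, and its part in the collagen differences was not tested. The 8 macrophage markers summed to 2091 and 1146 in muHuR-KO, against 1164 and 1317 in control, the 6 endothelial markers to 17964 and 12751 in muHuR-KO, against 16121 and 15418 in control, and the 6 mural cell markers to 15439 and 13279.5 in muHuR-KO, against 10760.1 and 14324 in control. The 6 Schwann cell markers summed to 5816 and 8931 in muHuR-KO, against 8547 and 4900.3 in control, and the 4 adipocyte markers to 579.6 and 645 in muHuR-KO, against 362 and 1129 in control. The groups overlapped in the macrophage, endothelial, mural, Schwann and adipocyte sums. The 8 soleus muscle fiber markers summed to 2511470 and 3025580 in muHuR-KO 1-9 and 3-9, against 3288100 and 2879380 in control 3-8 and 3-12, so they were lowest in muHuR-KO 1-9, the library with the most fibrillar collagen RNA. Its part in the collagen values was not tested.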

How the data were processed

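Messenger RNA of the soleus of 4 mice was sequenced as paired-end reads. Per the labels and the study's methods, alignment to mm10 (GRCm38) by the authors used TopHat2 2.0.10, gene counts came from HTSeq 0.6.1, and DESeq2 supplied the size factor by which every library was divided, so the deposited signal columns are the authors' normalized counts. The annotation, the strand setting and the DESeq2 version are not given in the sources used here. The deposited log2 fold changes, ratio of a fold change to its error (Wald score), p-values and adjusted p-values, and the mean column, are the authors' own comparison of muHuR-KO with 1 control, and were not used.

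Whole reads were recovered from the steps between values, and 100% were whole to within 0.01. Chi-square over its degrees of freedom was 65.4 between the muHuR-KO libraries and 147 between the controls, so neither pair is a copy. Genes were matched to GENCODE M21 by symbol (21740) or synonym (1244), and 436 were not. limma 3.58.1 in R 4.3.3 (eBayes with a trend) was fitted to log2(normalized count + 1) over genes with a mean of at least 10, with Benjamini-Hochberg adjustment over all of them. For single controls, a model of 3 groups was fitted, with 1 residual and 8.34 prior degrees of freedom. Alternatives were pseudocounts of 0.5 and 5, other filters, TMM, the recovered reads in edgeR 4.0.16 or in DESeq2 1.42.0, no trend, loess corrections for GC content and length (span 0.4), and leaving out each library. The alternatives for the count of chains above both controls were chosen after seeing the data. The fits were tested on simulated data.

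Values in every library are given for each tested fibrillar, type IV and type VI chain, and for other chains with an unadjusted p under 0.05 in a comparison or a mean of at least 500. From each other list, the members of smallest p and those called against control 3-8 were eligible, up to 4. The members and lists were chosen with earlier results of these data known.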

Additional observations from a re-analysis of the deposited data

How the results depend on the processing

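The count of chains called against both controls was 0 under every alternative over 4 libraries. Leaving out control 3-12 leaves control 3-8 alone, which is the comparison with that control and no separate result. The count against control 3-8 was 0 without a filter, 0 without a trend, 11 with the GC correction and 0 with the length correction, against 6 in the model reported. It was 4 of 38 (10.5%) with DESeq2, beside 7.71% of all genes, and 7 of 38 (18.4%) with TMM factors, beside 11.7%. The median log2 difference of the fibrillar chains against both controls was 0.48 with the length correction and 0.23 to 0.87 when 1 library was left out, the lowest without muHuR-KO 1-9. That of the basement membrane chains was 0.076 with the length correction and 0.015 to 0.35 when 1 library was left out. The count of chains above both controls was 13 of 38 with the length correction (8.97% of all genes). It was 19 of 34 with a mean of at least 50 (7.52%) and 20 of 38 with the GC correction (10.1%). With TMM factors it was 23 of 38 (12.4%), and without the filter 23 of 44 (11.8%). When 1 library was left out, 26 to 30 of 38 lay above (19.3 to 38.2% of all genes) and 1 to 4 below (26.4 to 41.9%). The cause of these differences was not tested. Of 1356 values of single chains under the alternatives, 54 changed sign, 0 of them a called value, 12 became called and 20 lost the call. No paired analysis was possible because the full mouse numbers differ, and the leading number 3, shared by muHuR-KO 3-9 and both controls, leaves muHuR-KO 1-9 without a control of its own number. Low chains rest on few reads, 13 per control library for Col25a1, and 9 and 4 in control 3-8 and 3-12 for Col17a1. With 2 mice per group no single-gene permutation test can pass 0.05.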
